A study of Mus musculus with 6 samples.

Results

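Immediate early genes and heat shock genes were examined in RNA sequencing libraries of total CD4 T cells sorted from the spleen of NOD mice, an inbred mouse strain prone to autoimmune diabetes. The set held 33 genes chosen by symbol, and all 33 had a row among the 28914 genes of the deposited table. It comprised 7 AP-1 and Atf3 genes, 3 Egr genes, 3 Nr4a genes, 3 genes for Krueppel-like factors and Myc, 3 Ier genes with Cd69, 8 feedback regulators and 5 heat shock genes. All mice were 12 weeks old, and the cells were at steady state, with no T cell receptor stimulation added after sorting. There were 6 libraries in 3 groups of 2, which were controls (WT), cells with a knockout of Blimp-1 (CKO) and cells that overexpress Blimp-1 (BTg). Blimp-1 is the product of Prdm1, a zinc finger transcriptional repressor of plasma cells and effector T cells. The sources used here do not name the Cre line of the knockout or the promoter of the overexpression. Each group had a library numbered 1 and a library numbered 2, and the labels do not say what the number stands for. For BTg number 2 it rests on the column name in the title alone. Nor do they say whether both libraries of a genotype were made from different animals, so each p-value below reflects the spread between libraries only, and that spread may be technical.

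Immediate early genes are transcribed within minutes of a stimulus without new protein synthesis, from factors such as SRF, the ternary complex factors and CREB that are already present in the cell. Many encode transcription factors, among them the Fos and Jun proteins that pair as AP-1, the Egr zinc finger proteins and the Nr4a orphan nuclear receptors, and in T cells Egr and Nr4a genes are known targets of antigen receptor signalling. Others encode phosphatases and RNA-binding proteins that end the same response. Heat shock genes are driven by HSF1 when proteins unfold, and both programmes are also known to be induced while cells are isolated from tissue.

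The libraries held 14958458 to 17799091 reads, as recovered from the deposited FPKM values, which are read counts scaled to gene length and library size. Prdm1 stood at 0.458 and 0.628 FPKM in WT, 0.849 and 0.669 in the libraries labelled CKO and 19.6 and 30.1 in BTg. It was not lower in the libraries labelled CKO than in WT, and a sum over the whole gene cannot check the deletion of a part of it, so each direction given for CKO rests on the label. Both BTg libraries lay above the other 4 without overlap. Prdm1 passed the filter on low values only through BTg, so no test of it is given. Cd4 stood at 53.8 to 103 FPKM and Cd3e at 36.9 to 100, both lowest in CKO number 1, while Cd8a was at 0.13 FPKM or less in all 6 libraries. CKO number 1 stood apart from the other libraries on principal component 1 (56.5% of the variance). The summed level of 8 neutrophil markers was 7070 FPKM there, against 28.4 to 163 FPKM in the other 5 libraries, with 8 of 8 detected at 1 FPKM or more. The summed level of 6 monocyte and macrophage markers was 214 FPKM against 5.89 to 31.8 FPKM, that of 5 plasma cell markers was 912 FPKM against 87.0 to 238 FPKM, and that of 6 B cell markers was 23.4 FPKM against 5.20 to 11.5 FPKM. The most abundant genes of these lists in CKO number 1 were S100a8 at 3612 FPKM, Lyz2 at 183 FPKM, Jchain at 724 FPKM and Cd79b at 10.4 FPKM. The 6 erythroid markers summed to 79.2 FPKM in WT number 1 and 978 FPKM in WT number 2, with Hba-a1 at 47.2 and 639 FPKM. Their sums were 361 and 592 FPKM in CKO numbers 1 and 2 and 91.0 and 150 FPKM in BTg, so number 2 was higher in each genotype. Because these are bulk libraries, fewer cells of a type and less RNA per cell cannot be told apart.

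The plainest pattern among the members did not follow the genotype. Fos, Fosb, Jun, Junb and Dusp1 were higher in the library numbered 1 than in the library numbered 2 of every genotype, and Hspa1a and Hspa1b were lower. Between genotypes, Egr2, Nr4a2 and Ier3 were highest in CKO and lowest in BTg in both numbers, Ier3 with its high value in CKO number 1. Jund, Egr1, Klf6, Dusp2, Dusp5 and Zfp36 were highest in both BTg libraries. Without overlap, 11.5% of all genes tested were higher in CKO than in WT and 14.7% were higher in BTg than in WT. Of these genes, Nr4a2 and Nr4a3 were not tested, and no test between numbers is given for Fosb and Hspa1a. None of the other differences passed an adjusted p of 0.05 over all genes tested.

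Of the 33 genes, 30 reached 1 FPKM in at least 2 libraries and were tested among 10798 genes, all in 1 limma fit on log2(FPKM + 1). Atf3, Nr4a2 and Nr4a3 did not reach that level. Fosb passed only through CKO number 1 and BTg number 1, and Hspa1a only through WT number 2 and BTg number 2. In CKO against WT, limma called 0 members at an adjusted p under 0.05, where it called 0% of all genes tested. At an unadjusted p under 0.05 it took 2 members higher and 0 lower, where 3.11% and 1.09% of all genes tested did, and limma voom on the recovered reads also called 0. In BTg against WT both tools again called 0 members, where limma called 0.0185% of all genes tested. At an unadjusted p under 0.05 limma took 3 members higher and 0 lower, against 0.769% and 0.852% of all genes tested. In BTg against CKO both called 0 members, limma again calling 0.0185% of all genes tested. At an unadjusted p under 0.05 limma took 2 members higher and 3 lower, against 2.78% and 6.01%. The BTg comparisons with WT and with CKO share the BTg libraries, and both comparisons with WT share the WT libraries. CKO against WT and BTg against CKO share the CKO libraries.

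Counted by non-overlapping libraries, 7 of 33 members were higher and 1 was lower in both CKO libraries than in both WT libraries, where 11.5% and 8.96% of all genes tested were. In BTg against WT, 9 of 33 were higher and 4 lower, against 14.7% and 10.4% of all genes tested. In BTg against CKO, 8 were higher and 8 lower, against 17.8% and 21.8%. These counts of the 33 include Atf3 and Nr4a2, which were not tested, whereas the shares are over tested genes alone. Both are among the 7 higher in CKO than in WT and the 8 lower in BTg than in CKO. Nr4a2 is also among the 4 lower in BTg than in WT. With 2 libraries a group, the smallest two-sided p of an exact permutation test of 1 gene is 0.333. The median log2 difference over the 33 genes was 0.018 for CKO minus WT, 0.21 for BTg minus WT and 0.27 for BTg minus CKO, beside -0.029, 0.022 and 0.059 over all genes tested. The CKO median had no stable direction. Over the 30 tested members it was 0.0038, it was -0.075 after quantile normalization and -0.0062 after median centring, and it ranged from -0.15 without CKO number 2 to 0.14 without CKO number 1.

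Between the numbers, with the genotype as a term in the fit, limma called 0 members at an adjusted p under 0.05, where it called 0% of all genes tested, and limma voom also called 0. At an unadjusted p under 0.05 it took 4 members higher and 6 lower in number 2, where 23.2% and 7.46% of all genes tested did. These counts include Hspa1a and Fosb, which passed the filter only through the number where each was high. Of the 33 genes, 10 were higher and 8 were lower in number 2 in all 3 genotypes, against 45.7% and 14.9% of all genes tested. Counted by libraries that do not overlap, 7 of 33 were higher in number 2 (Egr3, Nr4a1, Nr4a3, Nfkbiz, Tnfaip3, Hspa1a and Hspa1b) and 5 were lower (Fos, Fosb, Jun, Junb and Dusp1), against 30.8% and 9.71%. Nr4a3, which was not tested, is among the higher genes in both of these counts. Over the whole table, number 2 was higher by 0.19 on the log2(FPKM + 1) scale at the median of all genes tested, beside 0.075 at the median of the 33 genes. With 3 libraries a number, the smallest two-sided p of an exact permutation test of 1 gene is 0.1. With the libraries paired by genotype it is 0.25.

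**Figure D1:**
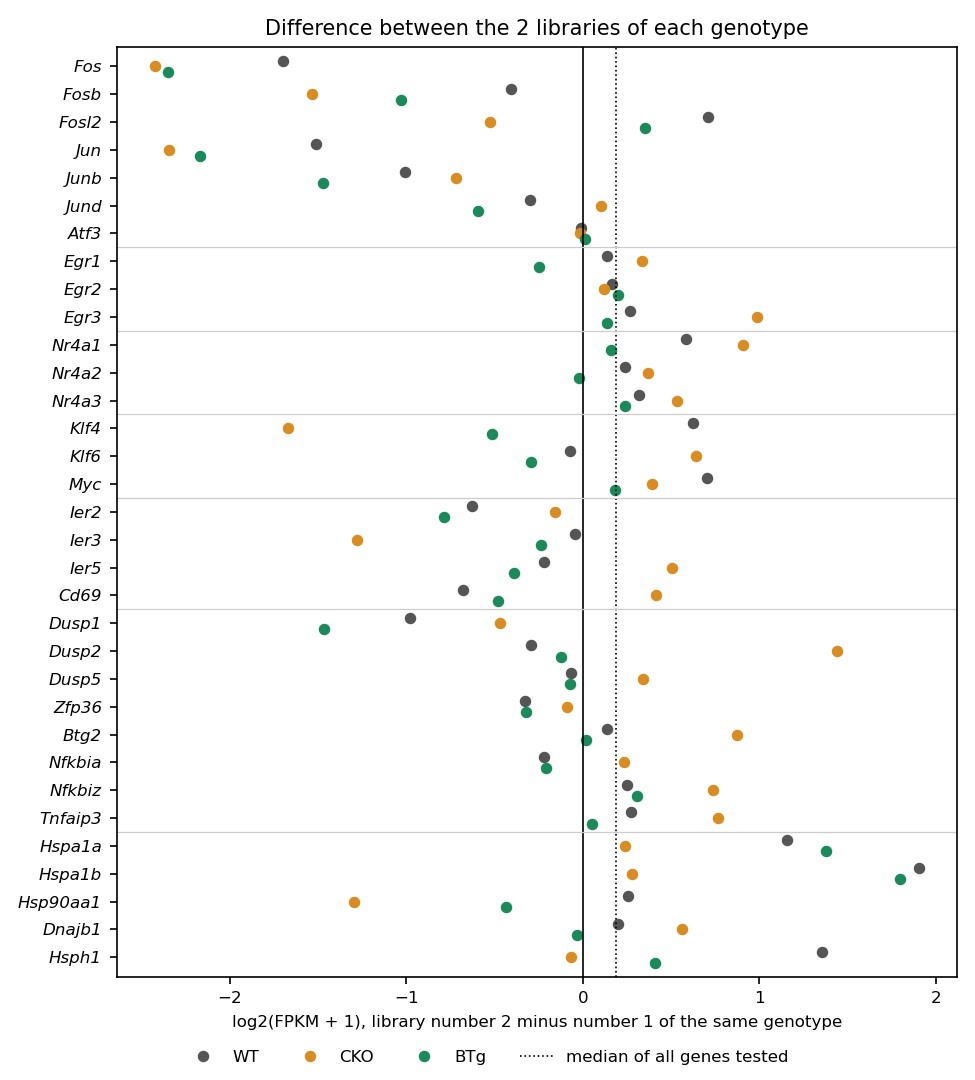
Difference in log2(FPKM + 1) between the library numbered 2 and the library numbered 1 of the same genotype for each of the 33 genes (horizontal axis), with 1 point per genotype and grey lines between gene groups. Fos, Jun and Junb lie left of 0 in all 3 genotypes, Hspa1a and Hspa1b lie right of 0, and the dotted line marks the median of all genes tested at 0.19.

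The upstream windows of members that split by library number are shown because the best known response elements of these families lie close to the start of transcription. RefSeq windows on GRCm38.p6, from 250 bases before to 50 bases after a start, were found for 26 of the 33 genes. Egr1, Egr3, Myc, Ier2, Cd69, Nfkbiz and Hsp90aa1 had none in the table. The windows of the 5 members that were higher in number 1 without overlap follow. Capitals mark the CRE half-site TGACG, the core of the element that CREB and ATF proteins bind. Jun, which split by number nearly as strongly as Fos, has no capitals because its window holds no TGACG on either strand. Dusp1 also holds the palindrome TGACGTCA, which overlaps that half-site on both strands. The windows are chr12:85473640-85473939 on the plus strand for Fos, chr7:19309996-19310295 on the minus strand for Fosb, chr4:95052173-95052472 on the minus strand for Jun, chr8:84978699-84978998 on the minus strand for Junb and chr17:26508423-26508722 on the minus strand for Dusp1.
Fos: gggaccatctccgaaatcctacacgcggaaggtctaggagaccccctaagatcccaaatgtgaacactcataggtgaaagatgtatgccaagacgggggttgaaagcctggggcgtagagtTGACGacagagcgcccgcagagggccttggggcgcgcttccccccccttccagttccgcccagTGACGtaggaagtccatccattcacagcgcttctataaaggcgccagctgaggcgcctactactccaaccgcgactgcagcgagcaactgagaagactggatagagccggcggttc
Fosb: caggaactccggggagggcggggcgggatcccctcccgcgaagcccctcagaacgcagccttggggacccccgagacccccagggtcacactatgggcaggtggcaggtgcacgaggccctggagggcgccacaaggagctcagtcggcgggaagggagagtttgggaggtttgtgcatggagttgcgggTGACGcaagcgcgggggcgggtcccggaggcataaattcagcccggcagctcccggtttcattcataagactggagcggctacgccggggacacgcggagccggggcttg
Jun: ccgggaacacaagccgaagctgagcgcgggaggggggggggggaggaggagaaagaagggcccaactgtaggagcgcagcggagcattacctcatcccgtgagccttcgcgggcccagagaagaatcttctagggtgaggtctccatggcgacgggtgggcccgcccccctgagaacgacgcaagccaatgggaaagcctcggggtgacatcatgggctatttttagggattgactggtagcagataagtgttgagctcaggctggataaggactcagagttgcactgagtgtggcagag
Junb: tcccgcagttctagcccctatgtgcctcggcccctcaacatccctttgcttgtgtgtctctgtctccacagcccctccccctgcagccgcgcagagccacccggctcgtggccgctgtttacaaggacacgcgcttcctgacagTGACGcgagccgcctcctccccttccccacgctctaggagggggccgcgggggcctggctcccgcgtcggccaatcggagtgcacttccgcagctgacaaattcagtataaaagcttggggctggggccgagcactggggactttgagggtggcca
Dusp1: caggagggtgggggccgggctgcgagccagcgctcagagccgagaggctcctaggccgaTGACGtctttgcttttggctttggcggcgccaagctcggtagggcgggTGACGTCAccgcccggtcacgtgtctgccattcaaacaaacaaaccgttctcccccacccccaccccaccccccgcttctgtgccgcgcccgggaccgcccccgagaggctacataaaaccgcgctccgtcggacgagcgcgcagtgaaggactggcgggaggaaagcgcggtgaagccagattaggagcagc
Some genes have several starts, and the 26 members had 33 windows. On either strand, TGACG was found in 17 of these 33 windows, those of 15 members, and in 20.8% of all 32851 windows. Nr4a1, Nr4a3 and Tnfaip3, which were higher in number 2 without overlap, hold it too. Its full palindrome was found in 2 of the 33, in Btg2 and Dusp1, and in 1.79% of all windows. The CArG box, to which SRF binds, was found in 6 of the 33, in Dusp5, Zfp36 and several windows of Egr2, and in 1.63% of all windows. The letters AGNGAAAG, part of the sequence that Blimp-1 is known to bind, were found on either strand in 0 of the 33 and in 8.63% of all windows. A match is a description of letters in a short window, and a missing match says only that they are not in it.

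The windows of Hspa1a and Hspa1b are shown because both genes were higher in number 2, and because they make plain how alike these neighbouring copies are. Hspa1a lies at chr17:34972107-34972406 and Hspa1b at chr17:34959189-34959488, both on the minus strand. Capitals mark a pair of inverted heat shock units, GAANNTTC, the kind of site that HSF1 binds.
Hspa1a: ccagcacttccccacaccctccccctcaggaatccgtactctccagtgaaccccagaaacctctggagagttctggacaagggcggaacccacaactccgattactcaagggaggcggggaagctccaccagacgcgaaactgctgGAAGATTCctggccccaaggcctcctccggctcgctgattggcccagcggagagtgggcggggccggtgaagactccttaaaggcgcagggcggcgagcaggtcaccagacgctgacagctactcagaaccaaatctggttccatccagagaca
Hspa1b: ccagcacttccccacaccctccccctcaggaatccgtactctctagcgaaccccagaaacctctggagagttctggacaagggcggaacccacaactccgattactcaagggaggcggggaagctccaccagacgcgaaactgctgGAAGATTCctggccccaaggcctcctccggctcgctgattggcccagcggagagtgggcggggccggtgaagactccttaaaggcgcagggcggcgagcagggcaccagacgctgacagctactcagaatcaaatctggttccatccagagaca
The windows were equal at 296 of 300 bases. GAANNTTC or TTCNNGAA, each its own reverse complement, was found in 7 of the 33 member windows, in Egr2, Fosl2, Hspa1a, Hspa1b, Hsph1 and Jun, and in 15.1% of all windows.

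Fos encodes the founding Fos family partner of AP-1, a short-lived protein that needs a Jun protein to bind DNA. It stood at 36.0 and 10.4 FPKM in WT, 64.1 and 11.1 in CKO and 62.8 and 11.5 in BTg, giving number 1 before number 2 here and for every gene below. The 3 libraries numbered 1 lay above the 3 numbered 2 without overlap, and those numbered 2 lay within a narrow range. The mean was 54.3 ± 15.9 FPKM (SD, n = 3) in number 1 and 11 ± 0.564 FPKM in number 2. The difference was -2.16 (SE 0.21) on the log2(FPKM + 1) scale, a 4.46-fold lower FPKM + 1 in number 2 (limma, adjusted p = 0.112, lower in 3 of 3 genotypes). It ranked as 5 from the lowest of 10798 genes tested. Between genotypes Fos overlapped in each comparison. BTg exceeded WT by 0.46 with an SE of 1.12 in the fit that leaves the number out, and lay above WT within each number.

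Jun encodes the principal dimer partner of Fos. It stood at 16.4 and 5.10 FPKM in WT, 22.5 and 3.63 in CKO and 40.0 and 8.13 in BTg. Every library numbered 1 exceeded every library numbered 2. The difference between numbers was -2.01 (SE 0.21) on the log2(FPKM + 1) scale (limma, adjusted p = 0.112), rank 9 from the lowest of all genes tested. BTg was highest within each number, yet the difference from WT was 0.91 with an SE of 1.04 in the fit that leaves the number out.

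Junb and Jund encode further Jun proteins, of which JunB is strongly induced by stimuli and JunD is made at a steadier level. Junb stood at 120 and 59.2 FPKM in WT, 119 and 72.2 in CKO and 224 and 79.8 in BTg. Its numbers did not overlap, and they differed by -1.07 (SE 0.21) on the log2(FPKM + 1) scale (limma, adjusted p = 0.112). Jund stood at 76.2 and 61.6 FPKM in WT, 57.7 and 62.1 in CKO and 154 and 102 in BTg. Both BTg libraries lay above the other 4, with BTg minus WT at 0.86 (SE 0.34, limma adjusted p = 1) and BTg minus CKO at 1.05 (SE 0.34, limma adjusted p = 0.479). Jund did not show the split by number, as CKO number 2 lay above CKO number 1. Junb overlaps Prdx2 on the opposite strand by 173 exonic bases, and strand use in counting is not given in the sources used here, so some of its reads may belong to Prdx2.

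Fosb and Fosl2, which encode FosB and Fra-2, were much lower. Fosb stood at 0.980 and 0.491 FPKM in WT, 3.12 and 0.422 in CKO and 1.84 and 0.391 in BTg. Its numbers did not overlap, and the difference was -0.99, or -1.82 with a pseudocount of 0.1 in place of 1. No test between numbers is given for Fosb, because it passed the filter through 2 libraries numbered 1. Fosl2 stood at 0.868 and 2.06 FPKM in WT, 3.44 and 2.08 in CKO and 3.20 and 4.35 in BTg. Here WT was lowest and the numbers overlapped. Fosl2 was higher in BTg than in WT by 0.99 (SE 0.33, limma adjusted p = 1), while CKO and WT differed by 0.63 (SE 0.33). Atf3, a stress-induced partner of Jun, had 0 to 7 reads in each library. The 0 reads of BTg number 1 allow up to 3 reads by counting error alone.

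Of the 7 AP-1 and Atf3 genes, 6 had a lower mean in number 2, the exception being Fosl2, and 4 were lower in number 2 in all 3 genotypes. Of the 10798 genes tested, 3386 had a lower mean in number 2 and 14.9% were lower in all 3 genotypes. The 6 include Atf3, which was not tested, and both the 6 and the 4 include Fosb, which passed the filter only through number 1. The median difference of the 7 genes between numbers was -0.99, which is the value of Fosb itself. Together they took 0.0475% and 0.0267% of reads in WT, 0.0537% and 0.0289% in CKO and 0.0941% and 0.0400% in BTg, so number 1 was higher in each genotype. After centring each library on the median of the tested genes the differences were -2.34 for Fos, -2.19 for Jun, -1.24 for Junb and -1.17 for Fosb. In BTg against WT, 6 of the 7 were higher in number 1 (all but Atf3) and 6 of the 7 in number 2 (all but Fosb), with median differences of 0.89 and 0.43. Of the 10798 genes tested, 6628 were higher in BTg in number 1 and 5370 in number 2, with medians of 0.069 and -0.00029. Atf3 had 2 reads in BTg number 2 against 1 in WT number 2. In the fits without BTg number 1, BTg minus WT was -0.72 for Fos, -0.17 for Jun and -0.078 for Junb. That is the opposite direction to the fit with all 6 libraries. Those fits hold no term for the number, so they set BTg number 2 against WT of both numbers. Within each number, 1 library against 1, BTg lay above WT for all of these genes. In numbers 1 and 2 the differences were 0.79 and 0.13 for Fos, 1.24 and 0.58 for Jun and 0.89 and 0.43 for Junb.

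**Figure D2:**
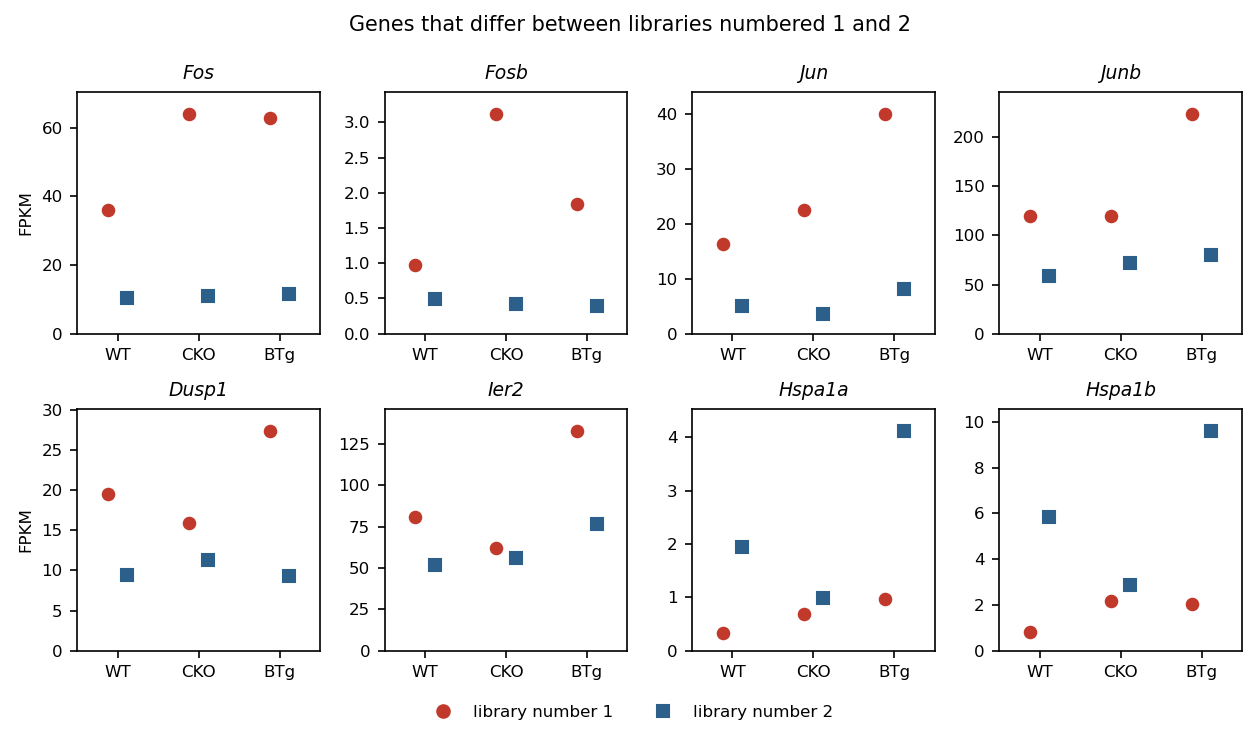
FPKM (vertical axis, linear, from 0) of 8 genes in each library, by genotype, with circles for number 1 and squares for number 2. In the panels of Fos, Fosb, Jun, Junb and Dusp1 the circle lies above the square in every genotype, and in those of Hspa1a and Hspa1b it lies below.

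Other classes of genes were also higher in number 1 of every genotype. The 78 ribosomal protein genes took 15.3% and 7.50% of reads in WT, 10.2% and 6.66% in CKO and 10.7% and 6.65% in BTg. The 32 mitochondrial genes took 3.20% and 1.26%, 1.93% and 1.23%, and 2.31% and 1.12% in the same order. The 8228 genes with a span under 2 kb took 15.6% to 18.9% of reads in number 1 and 12.1% to 13.0% in number 2, and the 2581 genes with a span over 50 kb took 7.11% to 9.66% and 10.03% to 10.8%. Fos, Jun and Junb are short genes with few or no introns, and the part of these shifts in their difference was not tested.

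**Figure D3:**
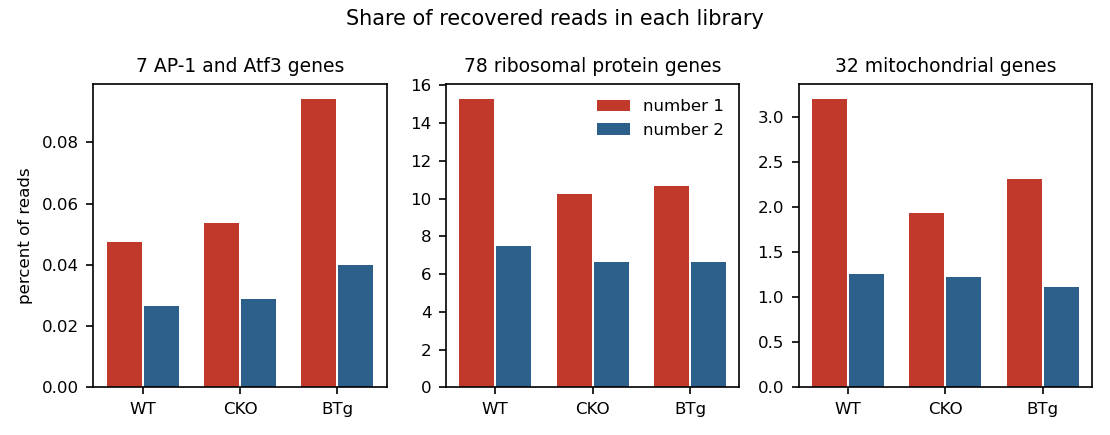
Percent of recovered reads (vertical axes, from 0) taken by the 7 AP-1 and Atf3 genes, 78 ribosomal protein genes and 32 mitochondrial genes in each library, with red bars for number 1 and blue bars for number 2. The red bar is higher than the blue bar in all 3 genotypes of each panel.

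Egr1, Egr2 and Egr3 encode zinc finger factors downstream of MAP kinase and calcium signals, and Egr2 and Egr3 are known to restrain T cell activation. Egr2 stood at 2.86 and 3.34 FPKM in WT, 5.14 and 5.67 in CKO and 1.91 and 2.34 in BTg. The 3 groups did not overlap, and the libraries of a group lay close together. CKO minus WT was 0.64 (SE 0.20) on the log2(FPKM + 1) scale (limma, adjusted p = 1), BTg minus WT was -0.39 (SE 0.20, adjusted p = 1) and BTg minus CKO was -1.04 (SE 0.20, adjusted p = 0.245). As the groups do not overlap, leaving out a library could not turn a sign, and several other settings return the same difference. CKO minus WT was 0.70 without CKO number 1 and 0.64 after quantile normalization. Egr2 had 126 to 434 reads in a library.

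Egr1 stood at 10.02 and 11.1 FPKM in WT, 9.41 and 12.1 in CKO and 16.8 and 14.0 in BTg. Both BTg libraries lay above the other 4, and BTg minus WT was 0.50 (SE 0.25, limma adjusted p = 1). Egr3 stood at 8.55 and 10.5 FPKM in WT, 4.81 and 10.5 in CKO and 10.2 and 11.3 in BTg. Its groups overlapped, and the lowest value was that of CKO number 1, the library with the neutrophil markers and the low Cd4. Unlike Fos and Jun, all 3 Egr genes had a higher mean in number 2, by 0.16 at the median, which is close to the 0.19 of all genes tested. After median centring the difference was 0.29 for Egr3, -0.016 for Egr2 and -0.10 for Egr1, so the direction of Egr1 and Egr2 flipped.

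Nr4a1, Nr4a2 and Nr4a3 encode the orphan receptors Nur77, Nurr1 and NOR1, of which Nur77 is a common reporter of antigen receptor signal strength. Nr4a1 stood at 6.53 and 10.3 FPKM in WT, 5.26 and 10.8 in CKO and 9.08 and 10.3 in BTg. All libraries numbered 2 lay above those numbered 1, the reverse of the order of Fos and Jun in the same libraries. The difference was 0.55 (SE 0.18, limma adjusted p = 0.143), and 0.37 after median centring. Nr4a3 stood at 0.573 and 0.958 FPKM in WT, 0.512 and 1.19 in CKO and 0.588 and 0.874 in BTg. Number 2 was again the higher in each genotype, at levels too low for the filter.

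Nr4a2 stood at 0.180 and 0.390 FPKM in WT, 0.514 and 0.957 in CKO and 0.152 and 0.136 in BTg. The order of the groups was that of Egr2, with CKO highest and BTg lowest and no overlap, from 14 to 117 reads in a library. It was not tested because of its low level.

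Klf4 and Klf6 encode Krueppel-like factors and Myc the growth regulator c-Myc. Klf4 restrains proliferation in T cells and is also high in myeloid cells. It stood at 1.55 and 2.93 FPKM in WT, 13.8 and 3.66 in CKO and 2.07 and 1.15 in BTg. CKO number 1 stood far above the others, in the library where neutrophil markers summed to 7070 FPKM and monocyte and macrophage markers to 214 FPKM; their part in the value was not tested. CKO minus WT was 1.39 (SE 0.57, limma adjusted p = 1), and 0.56 without CKO number 1. Klf6 stood at 20.5 and 19.4 FPKM in WT, 12.0 and 19.3 in CKO and 26.9 and 21.7 in BTg. BTg was the highest group and CKO the lowest, though WT number 2 and CKO number 2 were almost equal. Myc stood at 14.2 and 23.7 FPKM in WT, 16.1 and 21.5 in CKO and 13.4 and 15.4 in BTg. Number 2 was the higher in each genotype, by 0.42 (SE 0.16, limma adjusted p = 0.170), and by 0.25 after median centring.

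Ier2, Ier3 and Ier5 are immediate early response genes, and Cd69 encodes an early activation antigen that keeps lymphocytes in tissue. Ier2 stood at 80.5 and 51.6 FPKM in WT, 62.3 and 55.8 in CKO and 133 and 76.4 in BTg. It was higher in number 1 of each genotype, like Fos, with a difference of -0.53 (SE 0.19, limma adjusted p = 0.162), though the numbers overlapped. Cd69 stood at 16.0 and 9.61 FPKM in WT, 7.92 and 10.9 in CKO and 18.7 and 13.1 in BTg. Both BTg libraries lay above both CKO libraries, and BTg minus CKO was 0.70 (SE 0.34, limma adjusted p = 0.611). Ier5 stood at 31.5 to 51.0 FPKM in the 6 libraries, and its groups overlapped. Ier3 stood at 1.45 and 1.37 FPKM in WT, 6.07 and 1.91 in CKO and 1.004 and 0.701 in BTg, from 13 to 134 reads. As with Klf4, its high value was in CKO number 1, whose neutrophil marker sum was 7070 FPKM. BTg minus CKO was -1.30 (SE 0.42, limma adjusted p = 0.482). Over the libraries left out in turn it ranged from -1.94 to -0.66. The -1.94 came from the fit without CKO number 2, where CKO was represented by number 1 alone.

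The feedback regulators end the response. Dusp1, Dusp2 and Dusp5 encode phosphatases of MAP kinases, Zfp36 and Btg2 encode proteins that speed mRNA decay, and Nfkbia, Nfkbiz and Tnfaip3 encode modulators of NF-kB. Dusp1 stood at 19.6 and 9.42 FPKM in WT, 16.0 and 11.3 in CKO and 27.4 and 9.27 in BTg. It split by number without overlap, as Fos did, with a difference of -0.97 (SE 0.23, limma adjusted p = 0.114), or -1.15 after median centring. Dusp5 stood at 1.30 and 1.20 FPKM in WT, 0.759 and 1.23 in CKO and 2.40 and 2.23 in BTg. Both BTg libraries lay above the other 4, and BTg minus WT was 0.56 (SE 0.21, limma adjusted p = 1) while BTg minus CKO was 0.74 (SE 0.21, adjusted p = 0.459). Zfp36 stood at 56.8 and 45.1 FPKM in WT, 49.2 and 46.2 in CKO and 84.3 and 67.1 in BTg. It shared the order of Dusp5, and BTg minus WT was 0.56 (SE 0.30, limma adjusted p = 1).

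Dusp2 stood at 91.5 and 74.3 FPKM in WT, 33.4 and 92.5 in CKO and 112 and 103 in BTg. The low value was that of CKO number 1, and CKO minus WT turned from -0.56 (SE 0.51) to 0.16 without that library. Btg2 was likewise lowest in CKO number 1, at 34.1 FPKM against 51.5 to 63.2 FPKM in the other 5. Nfkbia stood at 60.6 to 75.2 FPKM, the narrowest spread among these genes relative to its level, with 3 overlapping groups. Tnfaip3 stood at 6.60 to 11.9 FPKM and Nfkbiz at 1.83 to 3.88 FPKM. Both were higher in number 2 of each genotype, by 0.36 (SE 0.18) and 0.43 (SE 0.14, limma adjusted p = 0.141).

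All 8 feedback regulators had a higher mean in BTg than in WT, 4 of them without overlap (Dusp2, Dusp5, Zfp36 and Btg2), with a median difference of 0.20 beside 0.022 over all genes tested. Of all genes tested, 54.5% had a higher mean in BTg and 14.7% were higher without overlap. None passed the adjusted test. The means of Dusp1, Nfkbia, Nfkbiz and Tnfaip3 turned direction when 1 library was left out, in fits without a term for the number. Tnfaip3 also turned under quantile normalization. In CKO against WT, 8 of 8 were lower in number 1 and 8 of 8 were higher in number 2, with median differences of -0.33 and 0.19. Each side of that contrast is 1 library against 1, so the reversal was not tested. Of the 10798 genes tested, 4642 were higher in CKO than in WT in number 1 and 5147 in number 2, with medians of -0.074 and -0.0084. In CKO number 1 the summed T cell markers were also the lowest of the 6 libraries, at 758 FPKM against 937 to 1519 FPKM.

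**Figure D4:**
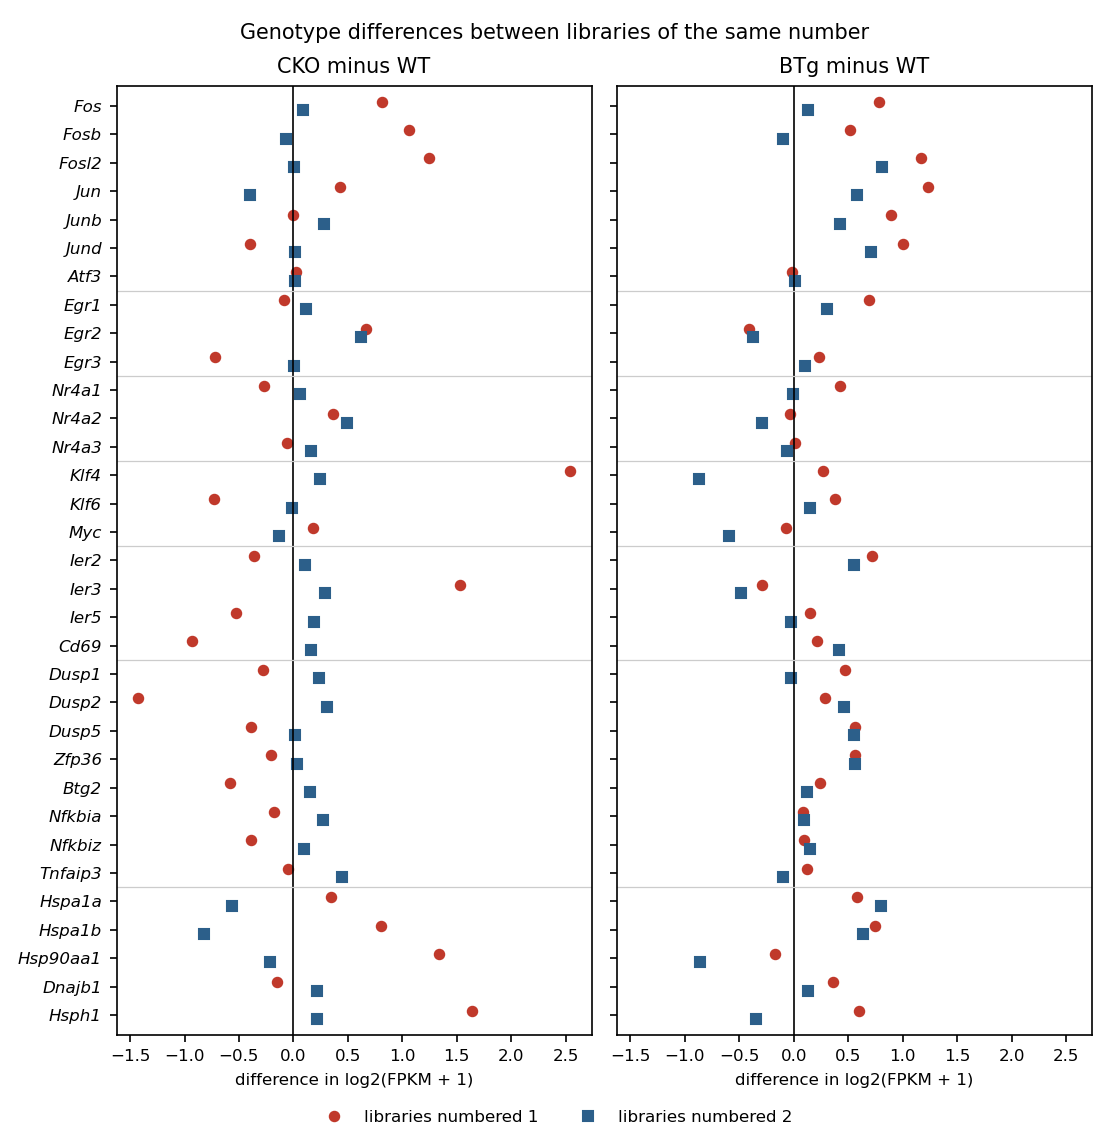
Difference in log2(FPKM + 1) from WT (horizontal axes) of CKO (left) and BTg (right) for the 33 genes, with circles for the libraries numbered 1 and squares for those numbered 2. For CKO the circles of all 8 feedback regulators, Dusp1 to Tnfaip3, lie left of 0 and their squares right of it, whereas for BTg the circles and squares of Jund, Egr1, Dusp2, Dusp5 and Zfp36 lie right of 0.

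Hspa1a and Hspa1b encode the inducible HSP70 chaperone, Hsp90aa1 the inducible form of HSP90, Dnajb1 an HSP40 co-chaperone and Hsph1 the nucleotide exchange factor HSP110. Hspa1b stood at 0.823 and 5.82 FPKM in WT, 2.18 and 2.86 in CKO and 2.06 and 9.61 in BTg. Number 2 was the higher in each genotype and no library overlapped, though the gap was small in CKO. The difference was 1.33 (SE 0.37, limma adjusted p = 0.121), or 1.15 after median centring. Hspa1a stood at 0.322 and 1.94 FPKM in WT, 0.682 and 0.988 in CKO and 0.972 and 4.12 in BTg, from 17 to 183 reads. It followed Hspa1b, with a difference of 0.92, or 0.75 after median centring, and no test between numbers is given because it passed the filter through 2 libraries numbered 2. As the copies are nearly identical, the split of reads between them is uncertain and they are not independent of each other.

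Hsp90aa1 stood at 526 and 627 FPKM in WT, 1326 and 540 in CKO and 466 and 344 in BTg. Both BTg libraries were the lowest, and CKO number 1 the highest by far. BTg minus WT was -0.52 (SE 0.51, limma adjusted p = 1), and CKO minus WT was 0.56 (SE 0.51), or -0.088 without CKO number 1. Hsph1 stood at 6.76 and 18.9 FPKM in WT, 23.2 and 22.1 in CKO and 10.8 and 14.6 in BTg. Both CKO libraries exceeded the other 4, with CKO minus WT at 0.93 (SE 0.47, limma adjusted p = 1). That difference was 0.25 without WT number 1 and 1.61 without WT number 2. Dnajb1 stood at 22.2 to 33.3 FPKM and was lowest in CKO number 1. The heat shock genes thus did not share 1 order, neither by genotype nor by number. In number 2, 4 of the 5 had the higher mean (all but Hsp90aa1), and 2 of the 5 were higher in all 3 genotypes. Of all genes tested, 68.6% had a higher mean in number 2 and 45.7% were higher in all 3 genotypes.

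**Figure D5:**
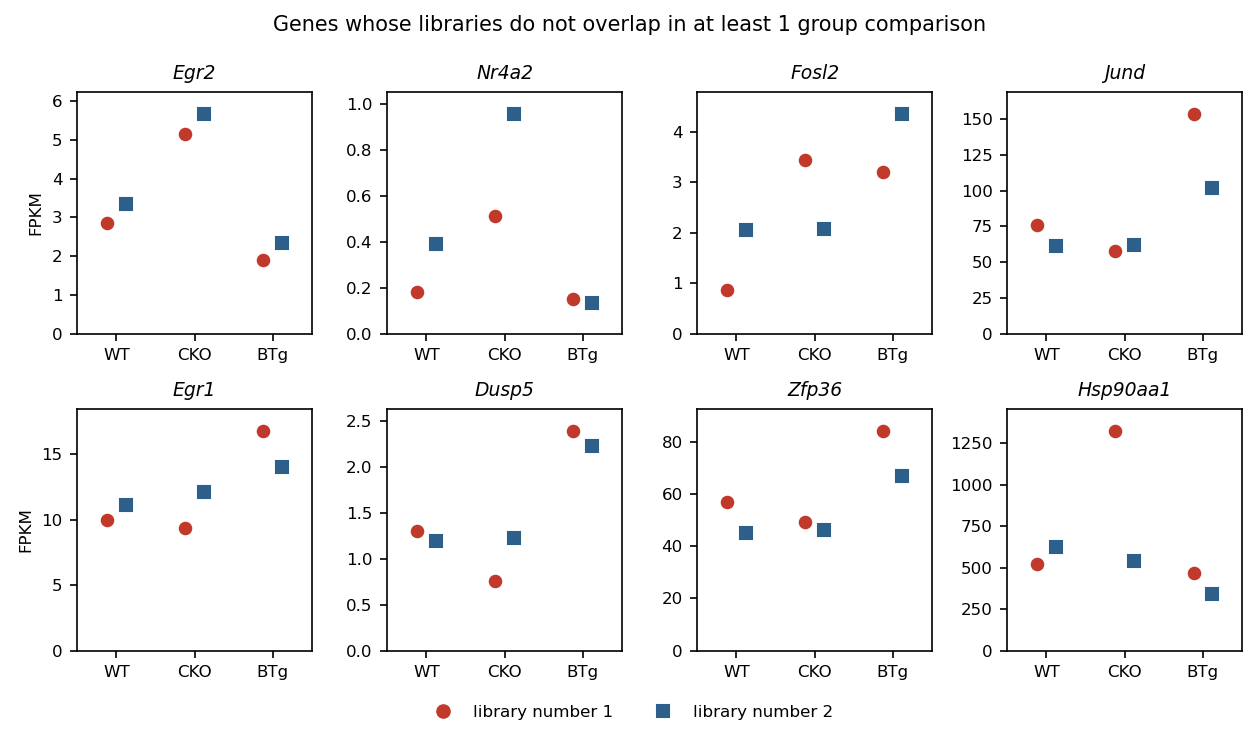
FPKM (vertical axis, linear, from 0) of 8 genes in each library, by genotype, with circles for number 1 and squares for number 2. Egr2 and Nr4a2 are highest in both CKO libraries, Jund, Egr1, Dusp5 and Zfp36 are highest in both BTg libraries, and Hsp90aa1 reaches 1326 FPKM in CKO number 1.

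Levels of different genes were compared per kilobase of merged exon, because the deposited values divide by a genomic span. On that scale Hsp90aa1 had the highest median over the 6 libraries, at 169 FPKM, followed by Nfkbia at 97.9, Btg2 at 84.7, Junb at 83.7, Dusp2 at 71.5, Ier2 at 69.4 and Jund at 69.1 FPKM. Hsp90aa1, at 109 to 420 FPKM, did not overlap Nfkbia, at 87.4 to 108 FPKM. Nfkbia in turn lay above Btg2 within each of the 6 libraries, although their ranges overlapped, and each later gene in this order lay above the next in 3 or fewer of the 6. Fos had a median of 14.2 FPKM and Jun of 12.3 FPKM, beside 15.5 for Nr4a1 and 11.5 FPKM for Egr1. No library of Fos or Jun lay at its median, which falls between the numbers. Fos stood at 21.5 to 38.3 FPKM in number 1 and 6.21 to 6.88 FPKM in number 2. Jun stood at 16.4 to 40.0 and 3.63 to 8.13 FPKM. Both lay above Nr4a1 and Egr1 in every library numbered 1 and below them in every library numbered 2. The lowest were Atf3 at 0.0702, Nr4a2 at 0.483, Fosb at 0.865 and Hspa1a at 0.980 FPKM. All 3 Egr genes stayed at or below the 16.7 FPKM of Egr1 in BTg number 1 on this scale.

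Further genes of the same pathways were taken from 4 lists. Of 8 other AP-1 partners 3 were tested, of 28 other early response genes 26, of 15 upstream factors 14 and of 18 other heat shock response genes 15, and limma called 0 of these in each of the 4 comparisons. At an unadjusted p under 0.05 it took 6 early response genes and 1 AP-1 partner higher in CKO than in WT and none of either list lower, where 3.11% and 1.09% of all genes tested were. In BTg against CKO it took 5 and 1 lower, and 1 early response gene higher (Csrnp1, named after its value was seen), where 6.01% and 2.78% were. The extreme of each list was the same gene in both comparisons, which share the CKO libraries and so are not independent. Gadd45b, a stress-induced regulator of MAP kinase signalling, stood at 9.54 and 7.77 FPKM in WT, 29.8 and 15.0 in CKO and 10.2 and 6.23 in BTg. Batf, an AP-1 factor of effector T cells, stood at 4.17 and 2.54 FPKM in WT, 8.13 and 4.97 in CKO and 3.18 and 2.32 in BTg. Both were highest in CKO, most of all in CKO number 1, with CKO minus WT at 1.21 (SE 0.40) and 0.79 (SE 0.31) and an adjusted p of 1 in limma.

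The upstream factors were close to even between genotypes, with a median of -0.041 for CKO minus WT and 0.035 for BTg minus WT. The extremes were Srf, the partner of the ternary complex factors, at 0.45 (SE 0.33) and Elk4, one of those factors, at -0.36 (SE 0.36) for BTg minus WT, and Mapk3 at 0.26 (SE 0.26) and Nfatc3 at -0.29 (SE 0.26) for CKO minus WT. Between numbers, 14 of the 15 had a higher mean in number 2, where 68.6% of all genes tested did, with a median of 0.22. Of the 18 further heat shock response genes, 15 had a higher mean in CKO than in WT and 14 a lower mean in BTg than in CKO, and 12 of those 14 were lower without overlap. Of all genes tested, 45.4% had a higher mean in CKO than in WT, and 21.8% were lower in BTg than in CKO without overlap. The medians of the 18 genes were 0.24 and -0.49, from 2 comparisons that share the CKO libraries. Hsp90ab1, the constitutive HSP90, stood at 294 and 583 FPKM in WT, 652 and 579 in CKO and 387 and 423 in BTg. Hspd1, a mitochondrial chaperonin, stood at 35.4 and 68.2 FPKM in WT, 94.4 and 54.9 in CKO and 34.6 and 37.6 in BTg. Both were highest in CKO number 1, and the part of that library's other cell types in these values was not tested. Hsf1, the factor that drives them, stood at 1.75 to 3.73 FPKM and was lowest in CKO number 1. Between numbers the further heat shock genes had a median of 0.058, under the 0.19 of all genes tested, while Hspa1a and Hspa1b of the members stood at 0.92 and 1.33.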

How the data were processed

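RNA of total CD4 T cells from 6 spleen samples was extracted with TRIzol and sequenced from NEBNext Ultra libraries, per the labels' protocols. The submitters' processing notes name GRCm38 and the tools featureCounts 1.6.0, HISAT2 2.1.0 and Trimmomatic 0.38, with neither settings nor strand use. FPKM values of 28914 genes were deposited by the authors and matched by Ensembl identifier to GENCODE names. They divide by the median span of each gene's transcripts on the genome, introns included. With that length 100% of values gave whole reads within 0.01, against 21.2 to 22.9% with exon length. Library totals so recovered were 14958458 to 17799091 reads.

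Genes at 1 FPKM or more in 2 libraries entered 1 limma 3.58.1 fit (R 4.3.3, eBayes with trend) on log2(FPKM + 1), which understates the change of low genes, with Benjamini-Hochberg adjustment and a threshold of 0.05. A second fit with a genotype term compared the library numbers. The fit was tested on simulated data. The members, further lists and tests were chosen with earlier results of these data known. Named genes are all 33 members, the largest and smallest difference of each further list per genotype contrast, Prdm1, Cd4, Cd3e, Cd8a and the most abundant gene of each other cell type list. Alternatives were another pseudocount, 2 other filters, quantile normalization, median centring, limma voom on recovered reads, a replicate block, fits of 2 groups and leaving out each library. Promoter windows are from RefSeq (GRCm38.p6). Figures were drawn with matplotlib 3.10.9.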

Additional observations from a re-analysis of the deposited data

How the results depend on the processing

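No member was called by limma in any alternative that kept 2 libraries in each group compared. Ier3 alone passed in BTg against CKO without CKO number 2. That fit rests on CKO number 1 alone and also gave the highest count over all genes below, so it is not read as a result about Ier3. The count over all genes in CKO against WT, 0, was 65 with no filter and ranged from 0 to 67 without each library in turn. In BTg against WT it was 2, and became 46 with no filter, 1 at 5 FPKM or more, 0 after quantile normalization, 4 with limma voom, 0 with only the 2 groups compared and 0 to 0 over the libraries left out. In BTg against CKO it was 2, and became 81, 5, 0, 7 and 0 in the same order, with a range of 0 to 238. With the library number as a replicate block it was 0 in BTg against WT and 0 in BTg against CKO. The number labels do not say what is shared: same-numbered libraries deviated together with correlations of 0.173 (WT and CKO), 0.469 (WT and BTg) and 0.456 (CKO and BTg) over 10798 genes, from 2 pairs per comparison. Between numbers the count was 0, with a range of 0 to 3.

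The median over the tested members ranged from -0.15 to 0.14 in CKO against WT, from 0.21 to 0.49 in BTg against CKO and from -0.079 to 0.14 between numbers over the libraries left out, and between numbers it was -0.11 after median centring. The cause was not tested. Of 30 tested members, 21 kept their direction between numbers in all alternatives, 16 in BTg against WT, 17 in BTg against CKO and 10 in CKO against WT. A member whose groups do not overlap cannot turn when a library is left out. Read counts of 0 to 183 limit Atf3, Nr4a2 and Hspa1a.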
